A study of Mus musculus with 9 samples.

Results

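The 9 genes examined here, which belong to the tumour necrosis factor (TNF) receptor superfamily and its adaptors, were measured in MH-S cells, a mouse alveolar macrophage line. They are the 6 receptors Fas, Ltbr, Tnfrsf1a, Tnfrsf1b, Tnfrsf10b and Tnfrsf12a, and the 3 TNF receptor associated factors (TRAFs) Traf1, Traf2 and Traf3. They were chosen by name, with earlier results of these data known, so counts and medians over the 9 describe these genes and are no test of the family. All 9 of 9 were among the 14771 genes of the expression table and passed the filter on low counts, which kept 11281 genes. The libraries fell into 3 groups of 3. SUR libraries carry the label suramin, a polyanionic drug, and the treatment protocol describes 200 µM of it alongside LPS. SUR was therefore read as suramin with LPS, 1 µg/ml and 4 h. LPS libraries came from cells given LPS (lipopolysaccharide, an endotoxin that stimulates TLR4) at 1 µg/ml for 4 h. CON libraries came from cells in culture medium, with no time stated. No group received suramin alone. All groups were of the same cell line, and no label says that the libraries numbered 1 to 3 came from separate cultures, so each p-value reflects the spread of these samples alone, possibly a technical one.

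TNF receptors are cell surface proteins that bind trimeric ligands of the TNF family. Receptors with a cytoplasmic death domain can recruit death-domain adaptors and caspases, whereas the others bind TRAF proteins directly. TRAF2 and TRAF3 bring the ubiquitin ligases cIAP1 and cIAP2 to receptors and to the kinase NIK, which links this family to canonical and non-canonical NF-kappaB signalling, and NF-kappaB induced by LPS is a known activator of several of these genes in macrophages.

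Library totals lay between 15729402 and 16675250 counts. The macrophage marker list (11 of 11 genes in the table) summed to 6327 to 10324 TPM in SUR, 5988 to 9941 TPM in LPS and 6455 to 10110 TPM in CON libraries. Most of these sums was Lyz2 alone, at 3636 to 7395, 3272 to 6951 and 3602.5 to 7100.5 TPM in SUR, LPS and CON. Of the list's alveolar markers, Marco was at 0 in the LPS and CON libraries and at 1 count in 1 SUR library, and Siglecf had at most 3 counts in any library, so these defining genes were nearly absent. Of its 9 tested genes, Spi1 had 286 ± 11.2 CPM in SUR and 380 ± 30.01 CPM in LPS, against 281 ± 5.56 CPM in CON (SD, n = 3 each), called in LPS against CON (0.43 in log2, edgeR adjusted p = 0.00285) and in SUR against LPS (-0.41, edgeR adjusted p = 0.00470). Csf1r was also called in both (0.31, edgeR adjusted p = 0.00743, and -0.23, edgeR adjusted p = 0.0326). Its second call was lost when any library but CON 1 and CON 2 was left out (adjusted p 0.0501 to 0.0965), and the part of these markers in the results was not tested. Epithelial markers (2 of 8 in the table) summed to 0, at most 0.45 and at most 1.29 TPM in SUR, LPS and CON. Sftpb and Scgb1a1 were at 0 in SUR. Fibroblast and endothelial markers (6 of 8 in the table) summed to 0.19 to 0.45, 0.15 to 0.20 and 0.08 to 0.18 TPM in SUR, LPS and CON, and lymphocyte and neutrophil markers (7 of 12) to 0.65 to 2.73, 1.00 to 1.99 and 0.63 to 1.84 TPM. In bulk RNA, fewer cells that express a gene and less of its RNA per cell cannot be told apart.

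The 3 death-domain receptors are Fas (Entrez 14102, chromosome 19, 34290647 to 34327775), Tnfrsf1a (21937, chromosome 6, 125349723 to 125362483) and Tnfrsf10b (21933, chromosome 14, 69767472 to 69784411), on GRCm38 as the deposited table gives them. The domain annotation in that table places a death domain in these 3 and in none of the other 6. Ltbr (17000, chromosome 6, 125306571 to 125313885), Tnfrsf1b (21938, chromosome 4, 145212368 to 145246870) and Tnfrsf12a (27279, chromosome 17, 23675445 to 23677449) lack one. Ltbr and Tnfrsf1a lie 35837 bases apart. A MATH/TRAF domain, the part that grips receptor tails, is annotated in Traf1 (22029, chromosome 2, 34941750 to 34961812), Traf2 (22030, chromosome 2, 25517982 to 25546940) and Traf3 (22031, chromosome 12, 111166321 to 111267155). A RING domain, the ubiquitin ligase fold, is annotated in Traf2 and Traf3 and not in Traf1. No exonic base of the 9 genes is shared with another gene of the GENCODE vM21 annotation.

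Promoter sequence is shown for Traf1 and Fas, whose levels moved most, and for Tnfrsf1b and Traf3, whose windows held a searched motif before the RefSeq start. Windows of 250 bases before to 50 after each gene's start were taken from RefSeq (GRCm38.p6) for 8 of the 9 members, and 3 motifs were searched on both strands: GGG and TTTCC with any 2 bases between for NF-kappaB, TGANTCA for AP-1, and TTTC repeated with any 2 bases between for the interferon-stimulated response element. Matches were found in 1.63%, 7.81% and 3.44% of 32851 promoter windows of this length for these 3 motifs in that order. Capitals mark the match, and sequences run 5′ to 3′ along the gene's strand. The Traf1 stretch is chr2:34961813-34962022 on the minus strand. Fas is chr19:34290409-34290646 on the plus strand, Tnfrsf1b chr4:145246871-145247120 on the minus strand and Traf3 chr12:111166350-111166379 on the plus strand.
Traf1: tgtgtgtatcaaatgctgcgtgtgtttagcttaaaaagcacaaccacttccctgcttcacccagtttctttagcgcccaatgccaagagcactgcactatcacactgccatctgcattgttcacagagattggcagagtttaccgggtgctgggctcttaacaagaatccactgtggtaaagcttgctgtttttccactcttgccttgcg
Fas: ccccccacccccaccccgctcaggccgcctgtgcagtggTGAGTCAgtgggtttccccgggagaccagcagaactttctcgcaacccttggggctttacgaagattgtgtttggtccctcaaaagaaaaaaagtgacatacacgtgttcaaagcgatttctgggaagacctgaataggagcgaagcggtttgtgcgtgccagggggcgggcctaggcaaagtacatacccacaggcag
Tnfrsf1b: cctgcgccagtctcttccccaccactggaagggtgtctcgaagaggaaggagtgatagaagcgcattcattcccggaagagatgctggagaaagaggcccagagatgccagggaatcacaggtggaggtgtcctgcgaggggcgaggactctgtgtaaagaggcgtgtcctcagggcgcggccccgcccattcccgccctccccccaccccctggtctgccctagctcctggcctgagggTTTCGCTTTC
Traf3: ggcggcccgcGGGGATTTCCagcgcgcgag
The Fas window held 1 AP-1 match, starting at position -211 from the RefSeq start. Tnfrsf1b held 1 interferon-type match and Traf3 1 NF-kappaB match, each starting at position -10 from the RefSeq start. The deposited table starts Traf3 at 111166321, so by its coordinates the printed Traf3 stretch and its match lie inside the gene. The 8 windows held 1 further match, an NF-kappaB match in Traf2 starting at position 31. The printed Traf1 stretch holds no capitals because none of the 3 motifs was found in its window, which says only that these letters do not occur there.

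LPS against CON asks how the endotoxin moved these genes, and it raised 6 of the 9 members and lowered 1. Traf1, an adaptor without a RING domain, was 27.6-fold higher, Fas 7.94-fold, Tnfrsf1b 2.09-fold, Tnfrsf10b 1.86-fold, Tnfrsf12a 1.77-fold and Traf3 1.44-fold. Ltbr was slightly lower, and Tnfrsf1a and Traf2 did not pass the test. The test was edgeR's quasi-likelihood test with all 9 libraries in 1 fit and Benjamini-Hochberg adjusted p-values over 11281 genes, with a call at an adjusted p under 0.05. By this rule 18.3% of all tested genes were called, 8.98% as higher and 9.36% as lower. The median log2 fold change was 0.83 over the 9 members and -0.01 over all tested genes. The 2 groups' libraries did not overlap for 8 of the 9 members, which was also so for 32.0% of tested genes.

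**Figure D1:**
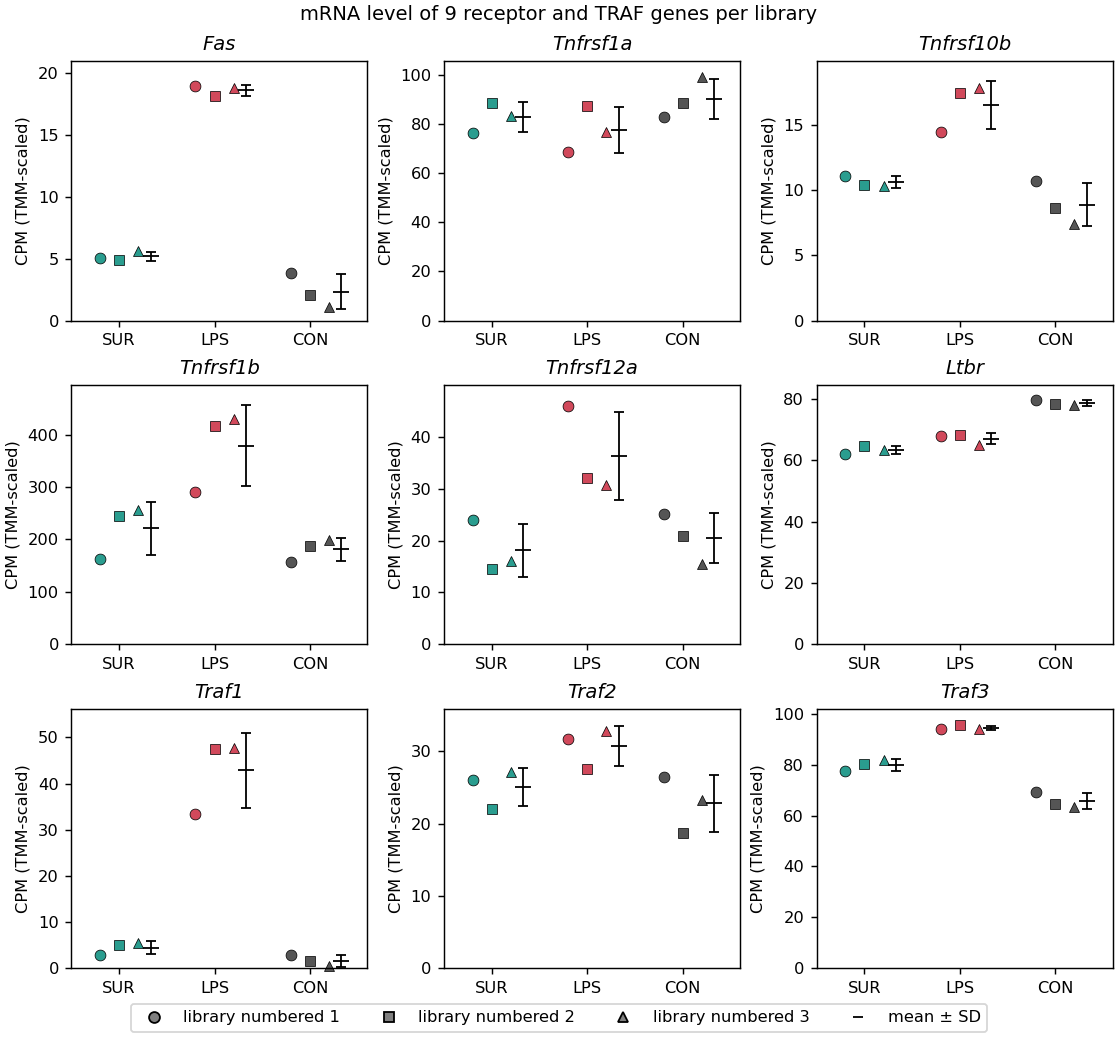
Level of each of the 9 genes in every library, in CPM (TMM-scaled, linear axes from 0), with SUR, LPS and CON from left to right, marker shapes for the library number and bars at the group mean ± SD (n = 3). Traf1 and Fas stand far higher in the 3 LPS libraries than in any other, whereas the 3 groups of Tnfrsf1a overlap.

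Among the death-domain receptors, Fas, the receptor of Fas ligand, moved most. Its level was 19.0, 18.1 and 18.7 CPM in LPS libraries, against 3.85, 2.07 and 1.07 CPM in CON libraries. Every LPS library lay above every CON library, and CON 1 was the highest of the CON libraries. The log2 fold change was 2.99 (SE 0.34, 95% interval 2.23 to 3.75, edgeR adjusted p = 0.000415).

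Tnfrsf10b, the mouse receptor of the ligand TRAIL, had 14.5, 17.4 and 17.8 CPM in LPS libraries, against 10.7, 8.64 and 7.38 CPM in CON libraries. The groups were apart, and LPS 1 lay closest to CON 1. LPS and CON differed by 0.89 in log2 (SE 0.15, 95% interval 0.56 to 1.23, edgeR adjusted p = 0.00294). Tnfrsf1a, which encodes TNF receptor 1, had 68.4, 87.3 and 76.8 CPM in LPS libraries, against 82.7, 88.5 and 98.9 CPM in CON libraries. The groups overlapped, and the difference of -0.22 in log2 (95% interval -0.46 to 0.02, edgeR adjusted p = 0.220) did not pass. With the replicate number as a block it was called as lower (edgeR adjusted p = 0.0116).

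Of the receptors without a death domain, Tnfrsf1b encodes TNF receptor 2, which binds TRAF2. It had 290, 417 and 431 CPM in LPS libraries, against 157, 188 and 200 CPM in CON libraries. The library numbered 1 was the lowest of both groups. In log2 the difference was 1.06 (SE 0.20, 95% interval 0.60 to 1.52, edgeR adjusted p = 0.00640).

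Tnfrsf12a, also called Fn14, is the receptor of TWEAK. It had 45.96, 32.1 and 30.7 CPM in LPS libraries, against 25.0, 20.9 and 15.4 CPM in CON libraries, with the library numbered 1 the highest in both groups. The log2 fold change was 0.83 (SE 0.25, 95% interval 0.27 to 1.38, edgeR adjusted p = 0.0476). This call stood close to the threshold. Leaving out any of LPS 1 to LPS 3, CON 2, CON 3 or SUR 3 ended it, with adjusted p of 0.0647 to 0.158 in these 6 fits. The call was also lost with upper-quartile scaling (edgeR adjusted p = 0.0631) and in the fits on the FPKM scale (limma adjusted p 0.0833 to 0.124).

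Ltbr encodes the lymphotoxin beta receptor, a starter of the non-canonical pathway. It had 67.9, 68.1 and 65.1 CPM in LPS libraries, against 79.6, 78.2 and 77.9 CPM in CON libraries. The groups did not overlap, and the spread within each was small. The log2 fold change was -0.23 (SE 0.05, 95% interval -0.35 to -0.11, edgeR adjusted p = 0.0140). The call was lost without LPS 3 (edgeR adjusted p = 0.0599) and with only the LPS and CON libraries in the fit (0.0568).

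Among the adaptors, Traf1 showed the greatest fold change of the 9 genes. It had 33.5, 47.5 and 47.7 CPM in LPS libraries, against 2.80, 1.46 and 0.36 CPM in CON libraries. CON 1 was the highest CON library here as for Fas. Its log2 fold change was 4.79 (SE 0.49, 95% interval 3.68 to 5.90, edgeR adjusted p = 0.000241), and without CON 1 it was 5.57, or 47.4-fold. On log2(FPKM + 1), a scale that understates the change of low genes, it was 3.55, or 11.7-fold.

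Traf3, which holds NIK in check, had 93.8, 95.5 and 94.1 CPM in LPS libraries, against 69.3, 64.6 and 63.2 CPM in CON libraries. The LPS values lay within 2 CPM of each other, and the log2 fold change was 0.52 (SE 0.06, 95% interval 0.39 to 0.65, edgeR adjusted p = 0.000344). Traf2, the adaptor that carries the cIAP ligases to both TNF receptors, had 31.7, 27.6 and 32.8 CPM in LPS libraries, against 26.5, 18.7 and 23.3 CPM in CON libraries. These libraries did not overlap either, yet the log2 fold change of 0.43 (95% interval 0.11 to 0.74, edgeR adjusted p = 0.0681) did not pass. It was called with the replicate block (edgeR adjusted p = 0.00054) and without CON 1 (edgeR adjusted p = 0.0261). The block, which called 41.8% of all tested genes, called 9 of the 9 members, 7 as higher (20.1% of tested genes) and 2 as lower (21.7%).

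SUR against LPS asks what suramin changed in cells given LPS, and here 6 of the 9 members were lower in SUR. Traf1 was 9.71-fold lower, Fas 3.57-fold, Tnfrsf12a 2.00-fold, Tnfrsf1b 1.72-fold and Tnfrsf10b 1.56-fold, and Traf3 fell by 0.24 on the log2 scale. Ltbr, Tnfrsf1a and Traf2 did not pass. In this comparison 17.2% of tested genes were called, 7.93% as lower and 9.29% as higher. The median log2 fold change was -0.64 over the 9 members and -0.01 over all tested genes, and the libraries did not overlap for 8 of the 9 members, against 34.9% of tested genes. The LPS libraries enter both this comparison and that of LPS with CON, so the values of the 2 comparisons are not independent.

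**Figure D2:**
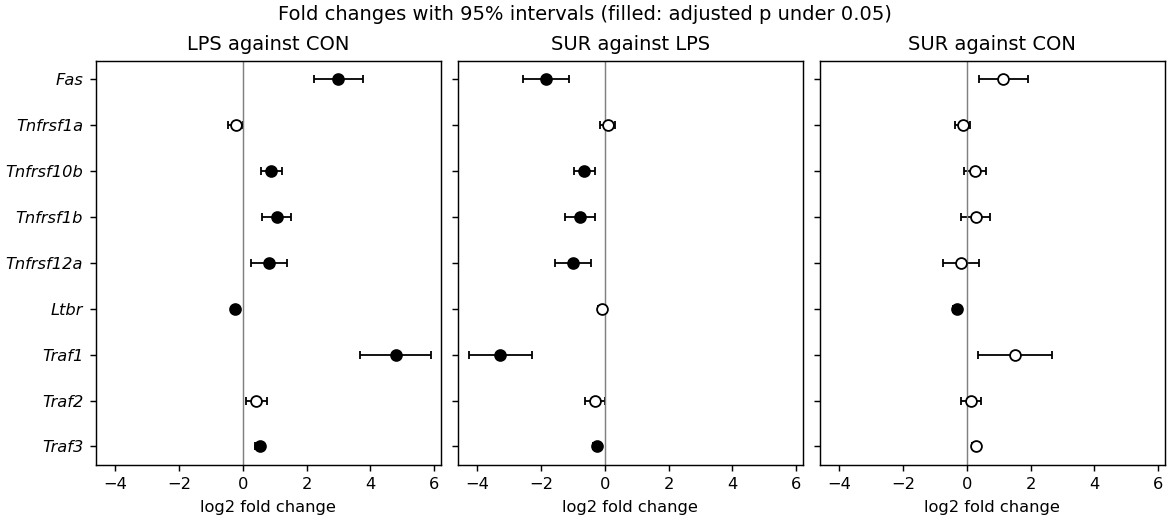
Log2 fold change of each gene (points) with its 95% interval (bars) for LPS against CON, SUR against LPS and SUR against CON, from left to right, with filled points where edgeR's adjusted p was under 0.05. Traf1 stands at 4.79, -3.28 and 1.51 and Fas at 2.99, -1.84 and 1.15 in these 3 comparisons.

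Fas had 5.07, 4.91 and 5.61 CPM in SUR libraries, against 19.0, 18.1 and 18.7 CPM in LPS libraries. The 3 SUR values lay close together and far below LPS. The log2 fold change was -1.84 (SE 0.31, edgeR adjusted p = 0.00432). Tnfrsf10b had 11.1, 10.4 and 10.4 CPM in SUR libraries, against 14.5, 17.4 and 17.8 CPM in LPS libraries. The groups were apart, with a log2 fold change of -0.64 (SE 0.15, edgeR adjusted p = 0.0166). This call was lost without LPS 2, LPS 3, SUR 2 or SUR 3, with edgeR adjusted p of 0.0571 to 0.0642. On log2(FPKM + 1) without the filter it was lost too (limma adjusted p = 0.0529). Tnfrsf1a had 76.3, 88.4 and 83.2 CPM in SUR libraries, against 68.4, 87.3 and 76.8 CPM in LPS libraries. Its groups overlapped, and the interval of the log2 difference ran from -0.15 to 0.33 (edgeR adjusted p = 0.638).

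Tnfrsf1b had 162, 244 and 257 CPM in SUR libraries, against 290, 417 and 431 CPM in LPS libraries. The number 1 library was again the lowest of each group, and the log2 fold change was -0.78 (SE 0.20, edgeR adjusted p = 0.0292). This call was lost without LPS 2, LPS 3, SUR 1 or SUR 2, with edgeR adjusted p of 0.0542 to 0.0981. It was also lost with only the SUR and LPS libraries in the fit (edgeR adjusted p = 0.0550) and on log2(FPKM + 1) without the filter (limma adjusted p = 0.0743). Tnfrsf12a had 23.9, 14.4 and 16.03 CPM in SUR libraries, against 45.96, 32.1 and 30.7 CPM in LPS libraries. The highest SUR library, SUR 1, stayed below the lowest LPS library, and SUR was 2.00-fold lower (SE 0.25 in log2, edgeR adjusted p = 0.0234). This call was lost without LPS 1, SUR 2 or SUR 3, with edgeR adjusted p of 0.0664 to 0.0912. It was also lost on log2(FPKM + 1) without the filter (limma adjusted p = 0.0671). Ltbr had 61.9, 64.6 and 63.3 CPM in SUR libraries, against 67.9, 68.1 and 65.1 CPM in LPS libraries, and the log2 difference of -0.08 (95% interval -0.20 to 0.03, edgeR adjusted p = 0.330) was not called. Its sign turned to 0.01 with upper-quartile scaling and 0.06 on the FPKM scale.

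Traf1 had 2.82, 4.91 and 5.50 CPM in SUR libraries, against 33.5, 47.5 and 47.7 CPM in LPS libraries. Every SUR library lay far below every LPS library, with a log2 fold change of -3.28 (SE 0.43, edgeR adjusted p = 0.00136), which was -2.69 on log2(FPKM + 1), or 6.44-fold lower. Traf3 had 77.3, 80.4 and 81.9 CPM in SUR libraries, against 93.8, 95.5 and 94.1 CPM in LPS libraries. The log2 fold change was -0.24 (SE 0.06, edgeR adjusted p = 0.0185), and the call was lost without LPS 2 (adjusted p = 0.0612), without LPS 3 (0.0553), with upper-quartile scaling (0.0790) and on the FPKM scale (0.314). Traf2 had 26.1, 22.0 and 27.1 CPM in SUR libraries, against 31.7, 27.6 and 32.8 CPM in LPS libraries. Its log2 difference of -0.29 (95% interval -0.61 to 0.02, edgeR adjusted p = 0.198) was called with the replicate block (edgeR adjusted p = 0.00548), which called 7 members, all 7 as lower, and 45.3% of tested genes (22.7% as lower and 22.6% as higher).

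SUR against CON sets cells with both agents beside cells in medium, and 1 of the 9 members, Ltbr, was called, as lower, in a comparison that called 0.425% of tested genes (0.0355% as lower and 0.39% as higher). Ltbr had 61.9, 64.6 and 63.3 CPM in SUR libraries, against 79.6, 78.2 and 77.9 CPM in CON libraries. SUR and CON differed by -0.31 in log2 (SE 0.05, 95% interval -0.43 to -0.20, edgeR adjusted p = 0.0495). The groups were well apart, but the call was lost in each of the 9 fits that left out 1 library, CON 1 to CON 3, LPS 1 to LPS 3 and SUR 1 to SUR 3 alike (edgeR adjusted p 0.0576 to 0.246), while the fold change in them stayed between -0.33 and -0.29.

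Traf1 and Fas, the members with the greatest fold changes under LPS, lay above CON in SUR with intervals above 0, though neither was called. The same held for Traf3, whose rise under LPS was smaller than that of Tnfrsf1b, Tnfrsf10b and Tnfrsf12a. Traf1 had 2.82, 4.91 and 5.50 CPM in SUR libraries, against 2.80, 1.46 and 0.36 CPM in CON libraries, and the lowest SUR and highest CON library, both numbered 1, almost met. Its log2 difference was 1.51 (95% interval 0.35 to 2.66, edgeR adjusted p = 0.344), which is not called. Fas had 5.07, 4.91 and 5.61 CPM in SUR libraries, against 3.85, 2.07 and 1.07 CPM in CON libraries, with a log2 difference of 1.15 (95% interval 0.38 to 1.92, edgeR adjusted p = 0.269). Without CON 1 the Fas difference was 1.72 and was called (edgeR adjusted p = 0.0103). Traf3 had 77.3, 80.4 and 81.9 CPM in SUR libraries, against 69.3, 64.6 and 63.2 CPM in CON libraries, a log2 difference of 0.28 (95% interval 0.15 to 0.41, edgeR adjusted p = 0.103). The other differences were 0.28 for Tnfrsf1b, 0.26 for Tnfrsf10b, 0.13 for Traf2, -0.12 for Tnfrsf1a and -0.18 for Tnfrsf12a in log2, with adjusted p of 0.721 to 0.973. Libraries did not overlap for 4 of the 9 members (Fas, Ltbr, Traf1 and Traf3), against 15.0% of tested genes, and the median log2 difference was 0.26 over the 9 and -0.01 over all tested genes.

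With the replicate block, 4 members were called, Fas (edgeR adjusted p = 0.0239), Traf3 (0.00396) and Tnfrsf1b (0.0204) as higher and Ltbr (0.000973) as lower, among 11.5% of tested genes (7.37% as higher and 4.18% as lower). Without the 3 libraries numbered 1, 5 members were called, among 5.19% of the genes tested there (4.44% as higher and 0.742% as lower). These were Fas (log2 difference 1.74), Traf1 (2.51), Traf3 (0.34) and Tnfrsf1b (0.37) as higher, and Ltbr as lower.

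The libraries numbered 1 stood apart from those numbered 2 and 3 in every group, and the members shared in this unevenly. Tnfrsf12a was higher in the libraries numbered 1 than in the mean of the others, by 0.65, 0.55 and 0.48 in log2 CPM in SUR, LPS and CON. Tnfrsf1b was lower by the same measure, with -0.63, -0.54 and -0.31. These 2 members passed 0.3 with 1 sign in all groups, as did 17.7% of tested genes. Traf1 and Fas differed from this pattern in CON, with offsets of -0.85, -0.51 and 1.75 for Traf1 and -0.05, 0.04 and 1.30 for Fas in SUR, LPS and CON.

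Tnf, the ligand of Tnfrsf1a and Tnfrsf1b, also stood high in CON 1. Its level was 1326, 1159 and 1597 CPM in SUR libraries and 1932, 2002 and 2352 CPM in LPS libraries, against 404, 92.1 and 22.1 CPM in CON libraries. Relative to the mean, the spread was wider in CON, with a coefficient of variation of 16.2% in SUR and 10.7% in LPS, against 118% in CON, while the SDs in CPM were alike (221, 225 and 203). Its part in the results for the receptors was not tested. The Tnf log2 fold change was 3.60 for LPS against CON (SE 0.84, edgeR adjusted p = 0.0168). It was 5.21 without CON 1 and 4.48 with limma-voom, and the call was lost without CON 2 (edgeR adjusted p = 0.0723). For SUR against LPS the Tnf difference was -0.62, with a 95% interval from -2.34 to 1.10 (edgeR adjusted p = 0.663), in the fit whose spread the CON libraries share. Every SUR library lay below every LPS library, and SUR minus LPS was -0.54, -0.79 and -0.56 in log2 CPM within numbers 1, 2 and 3. With only the SUR and LPS libraries in the fit, Tnf was called as lower in SUR (-0.62, edgeR adjusted p = 0.0231). For SUR against CON it was 2.98 (95% interval 1.13 to 4.83, edgeR adjusted p = 0.226; 0.0110 with the block).

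**Figure D3:**
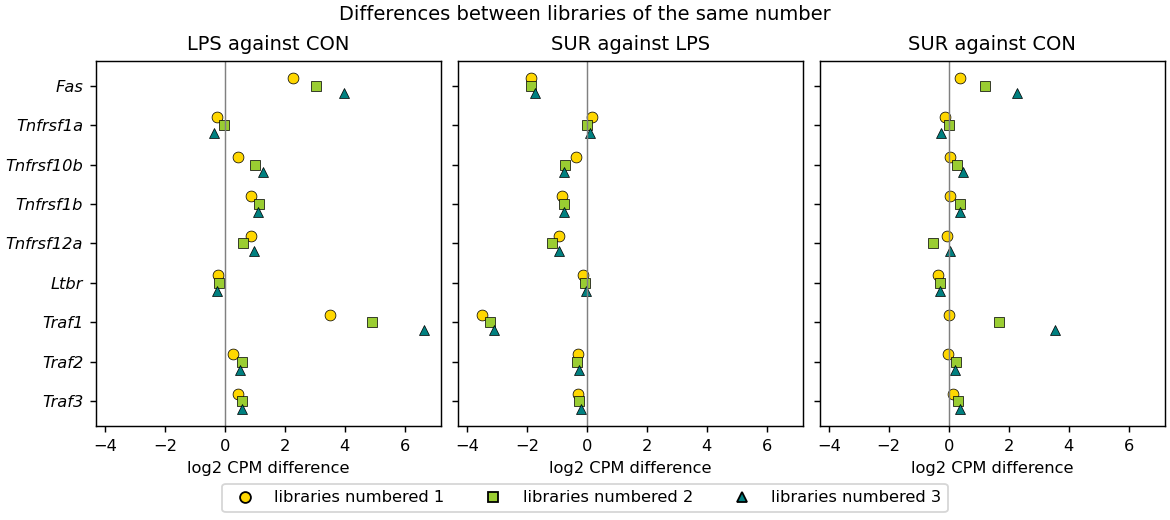
Difference in log2 CPM (prior count 2) between libraries of the same number, 1 point for each of the numbers 1, 2 and 3, for each gene in the 3 comparisons. For Traf1 the LPS minus CON difference is 3.52, 4.91 and 6.64 and the SUR minus LPS difference -3.51, -3.24 and -3.09 within numbers 1, 2 and 3.

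Taken within each number, LPS minus CON was 2.26, 3.06 and 3.98 in log2 CPM for Fas and 3.52, 4.91 and 6.64 for Traf1, all upward but of unequal size. SUR minus LPS was -1.88, -1.86 and -1.72 for Fas and -3.51, -3.24 and -3.09 for Traf1. SUR minus CON was 0.39, 1.20 and 2.26 for Fas and 0.01, 1.67 and 3.55 for Traf1, so the differences that involve the CON libraries varied most. Tnfrsf1b differed by 0.89, 1.15 and 1.11 for LPS minus CON and by -0.84, -0.77 and -0.75 for SUR minus LPS, although its level differed between numbers. Tnfrsf10b differed by 0.43, 1.00 and 1.26 for LPS minus CON and by -0.37, -0.74 and -0.78 for SUR minus LPS.

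The make-up of the family differed between groups on a scale that allows genes to be compared, TPM, which corrects for length. The ratio of Tnfrsf1b to Tnfrsf1a, TNF receptor 2 over TNF receptor 1, was 0.860, 1.12 and 1.25 in SUR libraries and 1.72, 1.95 and 2.28 in LPS libraries, against 0.769, 0.866 and 0.821 in CON libraries. TNF receptor 2 RNA was the more abundant of the pair in each LPS library and the less abundant in each CON library. For LPS against CON the exact two-sided permutation test gave p = 0.1, the smallest that this test can give with 3 against 3 libraries, so it could not reach 0.05 for any of these proportions. The SUR ratios lay below the LPS libraries (exact permutation p = 0.1) and overlapped with CON (exact permutation p = 0.2).

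Traf1 held 6.01%, 10.6% and 10.9% of the summed TPM of the 3 TRAF genes in SUR libraries and 39.0%, 48.8% and 47.5% in LPS libraries, against 6.28%, 4.37% and 0.986% in CON libraries. SUR overlapped with CON in this share through the libraries numbered 1. The sum of the 3 TRAF genes was 33.5 to 37.4 TPM in SUR and 59.2 to 67.5 TPM in LPS, against 24.9 to 32.8 TPM in CON. The 6 receptors together summed to 247 to 258 TPM in SUR and 327 to 340 TPM in LPS, against 247 to 260 TPM in CON. The SUR and CON ranges of this receptor sum overlapped (means 252 ± 5.12 and 254 ± 6.56 TPM, SD, n = 3 each, exact permutation p = 0.8).

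**Figure D4:**
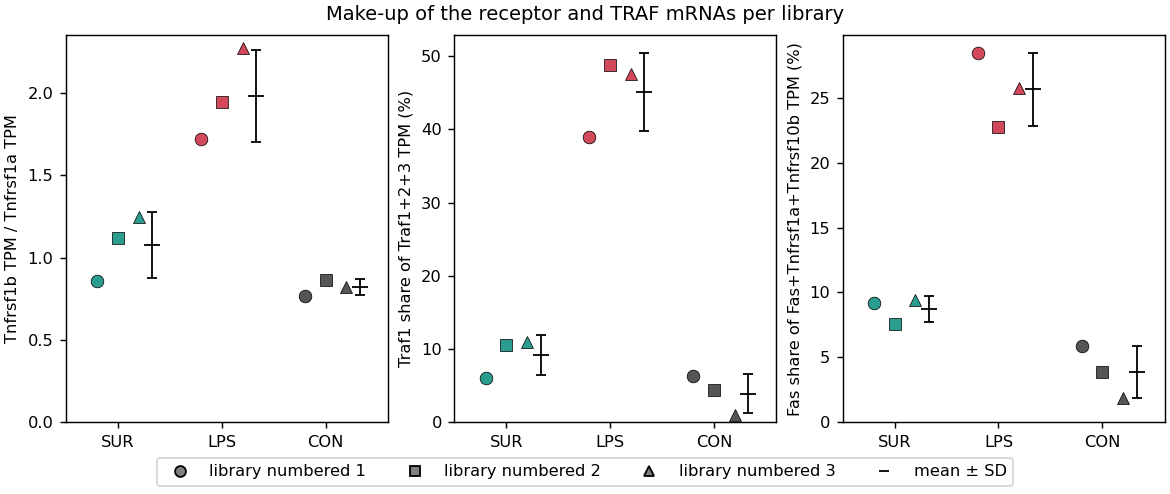
Make-up of the family in each library from TPM values, with SUR, LPS and CON from left to right: the ratio of Tnfrsf1b to Tnfrsf1a, the percent of the 3 TRAF genes' TPM held by Traf1, and the percent of the 3 death-domain receptors' TPM held by Fas (marker shapes for the library number, bars at mean ± SD, n = 3). All 3 are higher in each LPS library than in any SUR or CON library.

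Within the death-domain receptors, Fas held 9.17%, 7.55% and 9.44% of the summed TPM in SUR libraries and 28.4%, 22.8% and 25.8% in LPS libraries, against 5.87%, 3.86% and 1.86% in CON libraries. The SUR shares lay below every LPS and above every CON library (exact permutation p = 0.1 for both). The 3 death-domain receptors together took 31.8% to 33.5% of the receptor sum in SUR libraries and 25.8% to 28.2% in LPS libraries, against 30.8% to 34.2% in CON libraries. Their share was lower in each LPS library than in any other, while Fas and Tnfrsf10b were higher there.

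By mean TPM, the order in SUR was Tnfrsf1b (74.6), Tnfrsf1a (69.1), Ltbr (54.3), Tnfrsf12a (41.7), Traf3 (18.0), Traf2 (14.1), Fas (7.13), Tnfrsf10b (5.76) and Traf1 (3.24). Of the neighbours in that order, Tnfrsf1b and Tnfrsf1a overlapped between libraries, as did Ltbr and Tnfrsf12a. In LPS the order was Tnfrsf1b (116), Tnfrsf12a (74.6), Tnfrsf1a (58.6), Ltbr (52.1), Traf1 (29.0), Fas (22.9), Traf3 (19.3), Traf2 (15.6) and Tnfrsf10b (8.13). The first 4 of these overlapped with their neighbours, and so did Traf1 and Fas. In CON the order was Tnfrsf1a (73.8), Ltbr (66.1), Tnfrsf1b (60.4), Tnfrsf12a (45.6), Traf3 (14.6), Traf2 (12.7), Tnfrsf10b (4.74), Fas (3.11) and Traf1 (1.14). There Ltbr, Tnfrsf1b and Tnfrsf12a overlapped with their neighbours, as did Traf3 with Traf2, and Tnfrsf10b, Fas and Traf1 in turn. Traf1 was thus last of the 9 in SUR and CON and the most abundant of the 3 adaptors in LPS.

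**Figure D5:**
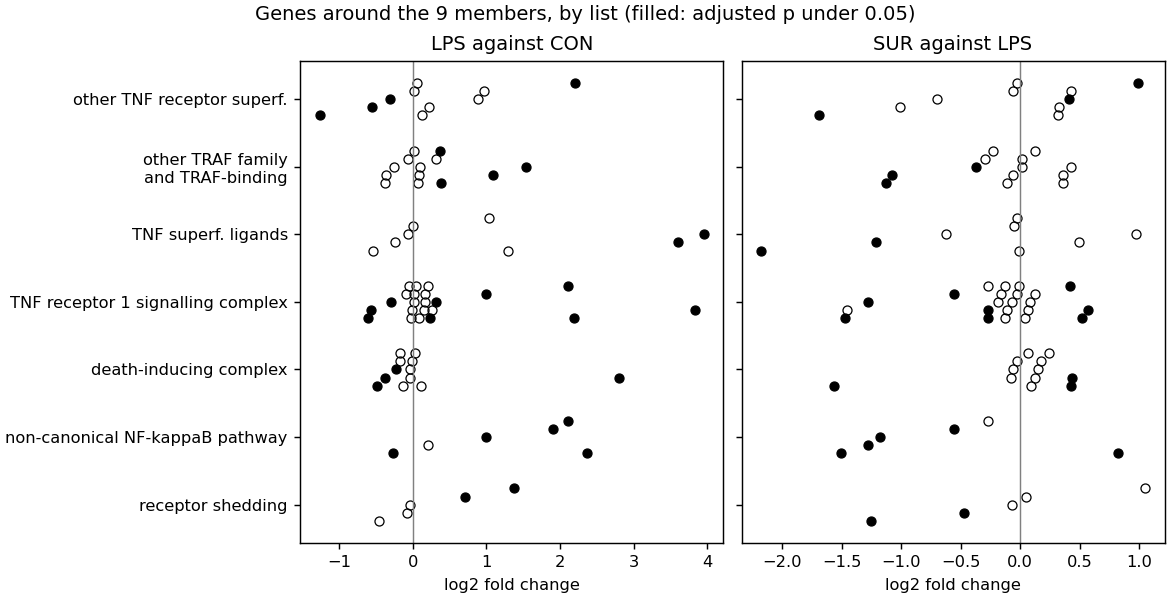
Log2 fold changes of the tested genes of each pathway list for LPS against CON and SUR against LPS, 1 point a gene, with filled points where edgeR's adjusted p was under 0.05. In the non-canonical NF-kappaB list Relb and Nfkb2 stand at 2.36 and 1.90 for LPS against CON, while Map3k14 stands at -0.27 there and at 0.82 for SUR against LPS.

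Of 22 other superfamily receptors, 15 were in the table and 10 were tested. The median log2 fold change was 0.09 for LPS against CON and 0.15 for SUR against LPS, and 4 and 3 genes were called in these comparisons. Cd40, a receptor that binds several TRAFs, had 34.3 ± 7.96 CPM in SUR and 110 ± 4.51 CPM in LPS, against 23.9 ± 12.5 CPM in CON (SD, n = 3 each, as for the list genes after it). Its log2 fold change was 2.21 for LPS against CON (edgeR adjusted p = 0.00155) and -1.69 for SUR against LPS (edgeR adjusted p = 0.00658). Relt moved the other way, with 20.2 ± 2.27 CPM in SUR and 10.1 ± 0.544 CPM in LPS, against 24.4 ± 6.08 CPM in CON. It differed by -1.27 in log2 for LPS against CON (edgeR adjusted p = 0.00144) and by 0.99 for SUR against LPS (edgeR adjusted p = 0.00613). Tnfrsf13b, a receptor of BAFF and APRIL, was also called in both comparisons (-0.31 and 0.41). Tnfrsf11a, the receptor RANK, was called as lower in LPS against CON (-0.55). Leaving out 1 library ended the LPS against CON call of Tnfrsf13b for any library but LPS 1 and SUR 1 (adjusted p 0.0536 to 0.117) and that of Tnfrsf11a for any but LPS 3 and CON 1 (0.0521 to 0.164). For Tnfrsf13b in SUR against LPS it did so for SUR 2 (0.0582). The receptors Cd27, Tnfrsf4, Tnfrsf13c, Tnfrsf17 and Tnfrsf18, were in the table (5 genes) with at most 9 counts in any library and were not tested. With the block, 6 and 7 of the 10 were called in LPS against CON and SUR against LPS, against 41.8% and 45.3% of tested genes.

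Of 13 other TRAF family and TRAF-binding genes, all 13 tested, 4 were called in LPS against CON, all as higher, with a median log2 fold change of 0.09, and 3 in SUR against LPS, all as lower, with a median of -0.06. Tank, a TRAF-binding scaffold of the kinases TBK1 and IKK epsilon, had 44.5 ± 2.67 CPM in SUR and 97.4 ± 7.84 CPM in LPS, against 45.7 ± 5.15 CPM in CON. The log2 fold changes were 1.09 for LPS against CON (edgeR adjusted p = 0.000127) and -1.13 for SUR against LPS (edgeR adjusted p = 0.000245). Ikbke, which encodes IKK epsilon, differed by 1.53 (edgeR adjusted p = 0.00217) and -1.07 (edgeR adjusted p = 0.0135) in the same comparisons. The second of these was lost without LPS 2 (0.0505) or LPS 3 (0.0522). Trafd1 (0.39 and -0.37) and Traf6 (0.37 in LPS against CON) had smaller calls, which were lost with upper-quartile scaling. Leaving out 1 library ended the Traf6 call for any library but SUR 1 and CON 1 (adjusted p 0.0568 to 0.152). For Trafd1 it did so for LPS 1 to LPS 3, CON 1 or CON 3 in LPS against CON (0.0556 to 0.105), and for any library but CON 1 and CON 2 in SUR against LPS (0.0552 to 0.121). Under that scaling, which called 6.78% of tested genes as higher and 15.1% as lower in LPS against CON and 14.1% and 5.46% in SUR against LPS, the split was 2 higher and 2 lower for LPS against CON and 1 higher and 2 lower for SUR against LPS. With the block 5 were higher and 3 lower in LPS against CON, and 3 higher and 5 lower in SUR against LPS. Of all tested genes the block called 20.1% as higher and 21.7% as lower in the first, and 22.6% and 22.7% in the second.

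Of 18 ligands of the family, 13 were in the table and 8 were tested. Besides Tnf, Tnfsf9, the ligand known as 4-1BBL, was called in LPS against CON. It had 112 ± 30.7 CPM in SUR and 508 ± 82.7 CPM in LPS, against 32.6 ± 25.7 CPM in CON. The log2 fold change was 3.96 for LPS against CON (edgeR adjusted p = 0.00106, 4.81 without CON 1) and -2.18 for SUR against LPS (edgeR adjusted p = 0.0160), a call lost without LPS 3 (0.0507) or SUR 2 (0.0693). The second ligand called in SUR against LPS was Lta, lymphotoxin alpha, named here after its values were seen, at 0.524 ± 0.205 CPM in SUR against 1.22 ± 0.148 CPM in LPS (-1.21 in log2, edgeR adjusted p = 0.0347). Leaving out any of LPS 1 to LPS 3, SUR 2, SUR 3 or CON 2 ended this call (adjusted p 0.0527 to 0.0973). With only the SUR and LPS libraries in the fit it was lost as well (edgeR adjusted p = 0.0662), and so it was with DESeq2 (DESeq2 adjusted p = 0.0616). The call rested on few reads, with 12, 5 and 10 counts in SUR libraries against 22, 17 and 17 in LPS libraries. Fasl, the ligand of Fas, had 1 count in all 9 libraries together, and Tnfsf10, which encodes TRAIL, had 13, so neither was tested.

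The signalling complex of TNF receptor 1 held 22 genes, all tested. In LPS against CON 6 were higher and 3 lower (median 0.12), and in SUR against LPS 3 were higher and 5 lower (median -0.12). The higher ones were led by inhibitors and cIAPs. The NF-kappaB feedback gene Tnfaip3, or A20, had 433 ± 63.4 CPM in SUR and 1184 ± 49.0 CPM in LPS, against 82.6 ± 98.2 CPM in CON. It differed by 3.84 in log2 for LPS against CON (edgeR adjusted p = 0.0140, 5.48 without CON 1, 4.78 with limma-voom, and adjusted p = 0.0637 without CON 2) and by -1.45 for SUR against LPS, which did not pass (edgeR adjusted p = 0.258). Its SUR libraries all lay below its LPS libraries, and the difference was called without CON 1 (edgeR adjusted p = 0.0453), without the libraries numbered 1 (0.0104) and with only the SUR and LPS libraries in the fit (0.000469). Its partner Tnip1 differed by 2.19 for LPS against CON (edgeR adjusted p = 0.000256) and -1.47 for SUR against LPS (edgeR adjusted p = 0.00241). Birc3, which encodes cIAP2, had 78.4 ± 3.99 CPM in SUR and 190 ± 9.61 CPM in LPS, against 43.9 ± 12.7 CPM in CON, and differed by 2.11 for LPS against CON (edgeR adjusted p = 8.45e-05) and -1.27 for SUR against LPS (edgeR adjusted p = 0.00133). Birc2, which encodes cIAP1, differed by 1.00 and -0.56 in the same comparisons (edgeR adjusted p = 7.14e-05 and 0.00167). Ikbkg, the regulatory subunit NEMO, had 78.6 ± 3.36 CPM in SUR and 52.9 ± 2.92 CPM in LPS, against 80.9 ± 3.05 CPM in CON. It differed by -0.61 for LPS against CON (edgeR adjusted p = 0.000311) and by 0.57 for SUR against LPS (edgeR adjusted p = 0.000724). Upper-quartile scaling gave 4 higher and 3 lower in LPS against CON and 3 higher and 3 lower in SUR against LPS. The block gave 11 higher and 3 lower in LPS against CON, where it called 20.1% of tested genes as higher and 21.7% as lower.

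Of the 12 genes of the death-inducing complex, all tested, 1 was higher and 3 lower in LPS against CON (median -0.09), and 2 were higher and 1 lower in SUR against LPS (median 0.11). The 1 that rose with Fas was Cflar, which encodes the caspase-8 inhibitor cFLIP. It had 263 ± 23.2 CPM in SUR and 776 ± 32.7 CPM in LPS, against 111 ± 53.4 CPM in CON, with log2 fold changes of 2.80 for LPS against CON (edgeR adjusted p = 0.000256) and -1.56 for SUR against LPS (edgeR adjusted p = 0.00521). Among those that fell were Bid (-0.49), a BH3-only protein cleaved by caspase-8, and the adaptor Fadd (-0.38). Fadd and Bid were higher in SUR than in LPS (0.43 in log2 for both). Fadd's fall in LPS against CON was lost without CON 2, LPS 2 or LPS 3 (adjusted p 0.0529 to 0.0674). Upper-quartile scaling gave 4 higher and 1 lower in SUR against LPS, and the block gave 5 higher and 1 lower there. Of all tested genes that scaling called 14.1% as higher and 5.46% as lower there, and the block 22.6% and 22.7%.

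The non-canonical NF-kappaB list, which Ltbr, Traf2 and Traf3 feed into, held 6 genes, of which Birc2 and Birc3 are also in the TNF receptor 1 list. In LPS against CON 4 were higher and 1 lower (median 1.45), and in SUR against LPS 1 was higher and 4 lower (median -0.87). Relb, an NF-kappaB subunit, had 39.5 ± 4.35 CPM in SUR and 112 ± 13.4 CPM in LPS, against 21.8 ± 6.42 CPM in CON. Its log2 fold changes were 2.36 for LPS against CON (edgeR adjusted p = 8.87e-05) and -1.51 for SUR against LPS (edgeR adjusted p = 0.00109). Nfkb2, the p100 precursor, differed by 1.90 and -1.18 in the same comparisons (edgeR adjusted p = 7.46e-05 and 0.00107). Map3k14, which encodes NIK, the kinase that Traf3 holds in check, ran against them. It had 32.9, 34.0 and 32.3 CPM in SUR libraries and 18.6, 18.9 and 18.8 CPM in LPS libraries, against 23.2, 23.2 and 21.4 CPM in CON libraries.

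The SUR libraries were thus the highest of the 3 groups for Map3k14, with no overlap between groups. Its log2 fold change was 0.82 for SUR against LPS (edgeR adjusted p = 0.000216) and 0.55 for SUR against CON (edgeR adjusted p = 0.0195). The second ended when any library numbered 2 or 3 was left out (adjusted p 0.0501 to 0.109). The fall of -0.27 in LPS against CON (edgeR adjusted p = 0.0257) ended when any library but CON 3 or SUR 3 was left out (adjusted p 0.0524 to 0.0840). In SUR against CON the block called 5 of the 6 genes of this list, all as higher, against 11.5% of tested genes (7.37% as higher).

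Receptor shedding is carried out by the protease ADAM17, which cuts both TNF receptors and TNF from the cell surface. Of 6 listed genes, 5 were tested, and 2 were called in both comparisons. Adam17 had 137 ± 6.66 CPM in SUR and 190 ± 7.33 CPM in LPS, against 117 ± 13.2 CPM in CON, a log2 fold change of 0.71 for LPS against CON (edgeR adjusted p = 0.000623) and -0.47 for SUR against LPS (edgeR adjusted p = 0.00567). Rhbdf2, which encodes its carrier iRhom2, differed by 1.38 and -1.25 in these comparisons (edgeR adjusted p = 0.000311 and 0.000811).

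For each member called in LPS against CON, the 3 other genes with the most similar log2 CPM over the 9 libraries were listed by Pearson r, as a description only, since all share the same libraries. Traf1 lay nearest to Stx11 (r = 0.991), Relb (0.990) and Ccl3 (0.990). Traf3 lay nearest to Icosl (0.996), Sod2 (0.995) and Sgk1 (0.993). For Fas these were Rasgef1b, Sdc4 and Csrnp1 (0.997 to 0.998), and for Tnfrsf1b they were Ikbke (0.992), Fam20c (0.989) and Plaur (0.987). For Tnfrsf10b they were Dse, Tlnrd1 and Slc25a25 (0.985 to 0.988), and for Tnfrsf12a Pla2g4a, Txnl1 and Psmb6 (0.984 to 0.988). Ltbr had the least similar neighbours, Setd6 (0.958), Ehd4 (0.951) and Gpi1 (0.942).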

How the data were processed

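RNA from 9 MH-S libraries (per the labels' protocols, total RNA extracted with Trizol and prepared with an MGIEasy kit) was analysed from the authors' gene table. Per the submitters' processing notes, HISAT2 2.0.4 and GRCm38 (mm10) were used; for the counter and the annotation, the name is not given in the sources used here. Expected counts, as the authors deposited them (estimated reads per gene, unnormalized, 93.4% whole), were rounded to whole numbers. The FPKM and TPM values were scaled for length and library size by the authors, per the file headers.

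Counts were tested with edgeR 4.0.16 (R 4.3.3): filterByExpr (11281 of 14771 genes), TMM (factors 0.934 to 1.04), 9 libraries in 1 fit with a mean per group and no covariate, quasi-likelihood F test, and Benjamini-Hochberg adjustment, threshold 0.05. Standard errors came from the F statistic. Alternatives used DESeq2 1.42.0, limma 3.58.1 with voom or on log2(FPKM + 1) and log2(FPKM + 0.1), other scalings and filters, and fewer libraries; figures used matplotlib 3.10.9. The procedure was tested on simulated counts with the same spread for all genes and no offset between library numbers. That test does not cover the uneven spread of these libraries.

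The labels' replicate numbers were taken to pair the samples in the replicate block and in the differences within numbers. The main fit used no pairing. Deviations of same-numbered libraries from their group means correlated at r = 0.435 to 0.801 over 11281 genes in all 9 pairs. Between libraries numbered 2 and 3 of different groups r was 0.347 to 0.437, which meets the low end of that range. Between libraries numbered 1 and those numbered 2 or 3 it was -0.643 to -0.521. Within a group the deviations of a gene cancel out, so these correlations depend on each other. The negative values between number 1 and the others follow in part from that. With that limit, the correlations set the libraries numbered 1 apart more clearly than they pair numbers 2 and 3. Members and lists were chosen with earlier results of these data known. Up to 4 called genes per list and comparison with the greatest log2 fold change and a mean log2 CPM of at least 2 are named, plus Tnf. A list gene that the rule would name is not reported here.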

Additional observations from a re-analysis of the deposited data

How the results depend on the processing

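In the counts that follow, a result not called in the main fit was kept if it stayed uncalled, so only called results could lose a call. Over 9 members, 20 alternative settings and 3 comparisons, 470 of 540 results kept their direction and side of the threshold, 47 lost the call, 19 gained it and 4 reversed. The 4 were Ltbr in SUR against LPS, not called in any of them, at 0.0060 (upper quartile), 0.057 (FPKM + 1, with and without the filter) and 0.058 (FPKM + 0.1). These scalings shifted the median gene by -0.096 and -0.131 in LPS against CON and by 0.089 and 0.131 in SUR against LPS, in that order; changes are best read against that shift. The split of called genes, 1013 higher and 1056 lower in LPS against CON, became 765 and 1709 with upper-quartile scaling and 679 and 2040 on log2(FPKM + 1). In SUR against LPS it was 1048 and 895 and became 1595 and 616, and 1970 and 518.

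With the replicate block, which takes the numbers as pairs, 4714, 5109 and 1302 genes were called in LPS against CON, SUR against LPS and SUR against CON, against 2069, 1943 and 48. Of the members it called 4 in SUR against CON. Without the libraries numbered 1 these counts were 3415, 3391 and 587, with 5 members in SUR against CON. Leaving out 1 library at a time gave 1379 (without CON 3) to 2075 genes in LPS against CON, 1208 (without SUR 2; 1255 without SUR 3) to 2054 in SUR against LPS and 0 (without CON 2) to 168 (without CON 1) in SUR against CON (at most 32 without any other library). Members called ran from 5 (without LPS 3) to 8 in LPS against CON, 3 (without LPS 2, LPS 3 or SUR 2) to 6 in SUR against LPS and 0 to 1 (Fas, without CON 1) in SUR against CON. SUR against CON called 259 genes and 3 members with DESeq2, 26 genes on log2(FPKM + 1) without a filter, and 4 genes and 0 members with only the 2 groups in the fit. It called 0 members with limma-voom, without a filter, and on log2(FPKM + 1) and log2(FPKM + 0.1). SUR against LPS called 2 members on log2(FPKM + 1) without a filter. The cause of these changes was not tested. The fewest counts behind a member value were 6, for Traf1 in CON 3.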
